A study of Homo sapiens and Mus musculus with 18 samples.

Results

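One RNA-seq library of smooth muscle cells was compared with 2 libraries of serum-passaged MesoT cells. All 3 were made from WA09, an established human embryonic stem cell line taken at passages 47 to 60. They are 3 of the 18 samples of a series on mesothelial development, and each has its own table of read counts per gene. The smooth muscle cells were derived from splanchnic mesoderm (SplM), the mesoderm layer that surrounds the embryonic gut. SplM was induced in 4 days with WNT3A at 25 ng/ml and BMP4 at 100 ng/ml in a chemically defined medium, and the cells for the smooth muscle library then stayed in culture for 16 to 18 days. The medium of those later days is not given in the sources used here. MesoT is the study's name for a product that SplM gives under WNT3A at 25 ng/ml, BMP4 at 50 ng/ml and 4 µM retinoic acid. For the MesoT FCS group, such cells were passaged on plastic in 10% fetal bovine serum with 8 ng/ml FGF2 and collected at passage 4. The groups therefore differ in inducing factors, serum, passage and time at once, and these cannot be told apart. Smooth muscle rests on 1 library from 1 cell line, and the labels do not say whether the 2 MesoT FCS replicates came from separate cultures, so p-values measure only the spread between these samples.

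Smooth muscle cells contract through smooth muscle actin, calponin, transgelin, tropomyosins and a myosin that is switched on by myosin light chain kinase. Their contractile genes are driven by serum response factor (SRF) with its partner myocardin at a short DNA element called the CArG box. The same genes are raised by serum, spreading on plastic and TGF-beta in fibroblasts, so they mark a contractile state and not one lineage alone. Splanchnic mesoderm gives rise in the embryo to visceral smooth muscle, mesothelium and vascular mural cells.

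The smooth muscle library held 27125377 counts, and the MesoT FCS libraries held 27387053 and 21148477. Mitochondrial transcripts took 3.36% of counts in smooth muscle, against 2.88% and 2.48% in MesoT FCS. Levels are given as CPM, counts scaled to a total of 1000000 in each library after TMM normalisation, and MesoT FCS values are given as replicate 1 and then replicate 2. Genes were tested with edgeR's quasi-likelihood test, and the call threshold was a Benjamini-Hochberg adjusted p of 0.05 over all genes. The spread came from the replicate pairs of MesoT FCS, MesoT day 18 and MLC. The last are WA09-derived mesothelium-like cells, made by replating SplM in medium with retinoic acid and the TGF-beta receptor inhibitor SB431542, without FGF2 and activin A. The labels name more than 1 sequencing facility and read length without assigning them to libraries, so such a batch cannot be told apart from the groups. The test takes the single smooth muscle library to be as variable as those pairs. Of 23049 genes tested, 4123 (17.9%) passed, 2379 (10.3%) of them higher and 1744 (7.57%) lower in smooth muscle. The 2 MLC libraries decided much of that number: without them 1118 genes (5.0% of 22371) passed, 823 (3.68%) higher and 295 (1.32%) lower, and 1117 of these were among the 4123 in the same direction. The MLC libraries also stood apart from the other 5 in depth (70679258 and 65709545 counts, against at most 28982850) and in mitochondrial transcripts (6.84% and 7.76%, against at most 3.42%). They differed as well in the summed level of genes named as antisense (2848 and 2897 CPM, against at least 6943 CPM, scaled here by total counts without TMM). The part of these differences in the calls was not tested. The median log2 fold change over all genes tested was 0.02.

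The label of the smooth muscle library was first set against its markers. MYLK, which encodes myosin light chain kinase, had 66.6 CPM in the smooth muscle library, against 207 and 146 CPM in the MesoT FCS libraries. TAGLN, which encodes transgelin, had 600.2 CPM in smooth muscle, against 3457 and 1053 CPM in MesoT FCS. TPM1, a tropomyosin gene, had 1701 CPM in smooth muscle, against 3168 and 1671 CPM in MesoT FCS. All 3 contractile markers were detected in every library, and in none was smooth muscle above both MesoT FCS libraries. COL1A1, a fibrillar collagen gene of mesenchyme, had 32892 CPM in smooth muscle, against 26927 and 42666 CPM in MesoT FCS, with smooth muscle between the other libraries. None of the 4 passed the test (adjusted p = 0.153, 0.324, 0.478 and 0.966, in the same order). The 4 markers were detected in all 3 libraries, and none was called higher in the library labelled smooth muscle. MYLK and TAGLN lay below both MesoT FCS libraries there. With 1 smooth muscle library, a missed threshold does not show equal levels. The largest shares of calls in the library labelled smooth muscle were in epithelial gene lists, described below. Whether the library is smooth muscle as labelled is thus not settled by these markers, and the name is used only as the label gives it. MYLK passed as lower when either MesoT day 18 library was left out (adjusted p = 0.0443 and 0.0433).

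Among the 27 genes of the contractile list, none rose and 2 fell in smooth muscle, and 7.41% lower is close to the 7.57% of all genes called lower. HSPB6, a small heat shock protein of muscle, had 21.8 CPM in the smooth muscle library, against 138 and 187 CPM in the MesoT FCS libraries (log2 fold change -2.90 ± 0.51 (SE), adjusted p = 0.0178). NEXN, an actin-binding protein of muscle, had 9.08 CPM in smooth muscle, against 176 and 76.9 CPM in MesoT FCS (log2 fold change -3.80 ± 0.97 (SE), adjusted p = 0.0464). The median log2 fold change of the list was -0.75. No gene of the list rose by DESeq2 or limma voom either, and 2 did so at an unadjusted p under 0.05 in edgeR. NEXN did not pass without 1 MLC library (adjusted p up to 0.109), and HSPB6 and NEXN did not without 1 MesoT FCS replicate (adjusted p up to 0.105).

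The other classical contractile genes varied widely between the 2 MesoT FCS libraries. ACTA2, smooth muscle alpha-actin, had 269 CPM in the smooth muscle library, against 1829.9 and 264 CPM in the MesoT FCS libraries (log2 fold change -1.96 ± 1.44 (SE), adjusted p = 0.373). Its smooth muscle value lay beside MesoT FCS replicate 2 and far below replicate 1. CNN1, calponin, had 61.3 CPM in smooth muscle, against 531 and 119 CPM in MesoT FCS (adjusted p = 0.215). ACTG2, the enteric gamma-actin, had 64.3 CPM in smooth muscle, against 1239.9 and 218 CPM in MesoT FCS (adjusted p = 0.0962). MYL9 and TPM2, the regulatory light chain and a second tropomyosin gene, were at 483 and 391 CPM in smooth muscle, below the 2008 and 2321 CPM of MesoT FCS replicate 1 and the 909 and 1277 CPM of replicate 2. MesoT FCS replicate 1 was the highest library for each of these genes. The coding sequences of the actin genes are similar, so some counts may have been split between them.

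Replicate 1 of MesoT FCS was above replicate 2 for 26 of the 27 genes, and the median absolute log2 ratio of the replicates was 1.25 over the list, against 0.24 over all genes. Smooth muscle was above both for 9 genes, below both for 10 and between them for 8, whereas over all genes tested it was above both for 44.3%, below both for 39.4% and between for 16.3%. The list summed to 5326 CPM in smooth muscle, against 19478 and 7921 CPM in MesoT FCS. In bulk RNA, fewer cells of a type and less RNA per cell cannot be told apart.

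A few contractile genes ran the other way. MYH11, the smooth muscle myosin heavy chain and the marker most restricted to mature smooth muscle, had 8.63 CPM in smooth muscle, against 5.54 and 5.42 CPM in MesoT FCS (log2 fold change 0.66 ± 0.46 (SE), adjusted p = 0.354). PPP1R12B, a myosin phosphatase subunit, had 29.6 CPM in smooth muscle, against 12.3 and 9.33 CPM in MesoT FCS. PDLIM3 had 97.7 CPM in smooth muscle, against 40.3 and 1.06 CPM in MesoT FCS and JPH2, a junction protein of muscle membranes, had 50.5 CPM in smooth muscle, against 29.5 and 2.96 CPM in MesoT FCS. Smooth muscle was highest for each of these, but none passed the test. The calls followed the replicate used: without MesoT FCS replicate 1, JPH2, PDLIM3 and HSPB7 were among the genes that rose and HSPB6 alone fell, and without replicate 2 FLNC and ACTG2 were the 2 genes that fell. HSPB6 did not pass without 1 MesoT FCS replicate (adjusted p up to 0.0564).

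The promoters of these genes were read for the CArG box, since both lists of actin and contractile genes are classical SRF targets. The 250 bases before a single start per gene, the first listed, were taken from the RefSeq table (GRCh38.p14). By symbol, 22 of the 27 contractile genes and 27 of the 31 actin and focal adhesion genes were matched in it. Other starts of the same gene were not read. Only exact matches of 10 bases were counted: CC, then a run of A or T, then GG. Boxes that depart from this form in any base were not counted. The box is palindromic in form, so 1 strand reads both. It stood in 2 of the 22 contractile promoters and in 4 of the 27 actin and focal adhesion promoters, against 1.14% of all 27305 promoters. The windows below show 10 bases on each side of each box, in capitals, 5′ to 3′ on the gene's strand.
ACTG2, chr2:73892888-73892917, plus strand: gaaaaaaccaCCTTATATGGtaatattgct
ACTG2, chr2:73892925-73892954, plus strand: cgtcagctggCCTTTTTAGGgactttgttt
MYLK, chr3:123620623-123620652, minus strand: ataaaccatcCCTTTTATGGgagttgaagc
ACTG1, chr17:81512874-81512903, minus strand: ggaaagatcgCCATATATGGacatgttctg
CNN2, chr19:1026509-1026538, plus strand: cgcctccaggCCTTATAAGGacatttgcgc
TPM4, chr19:16067355-16067384, plus strand: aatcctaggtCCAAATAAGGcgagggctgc
FLNA, chrX:154374709-154374738, minus strand: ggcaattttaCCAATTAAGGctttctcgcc
ACTG1, CNN2, TPM4 and FLNA belong to the actin and focal adhesion list. A match is a stretch of letters and not a measured binding site. Whether the MYLK start read here is that of the transcripts encoding the kinase was not checked.

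**Figure D1:**
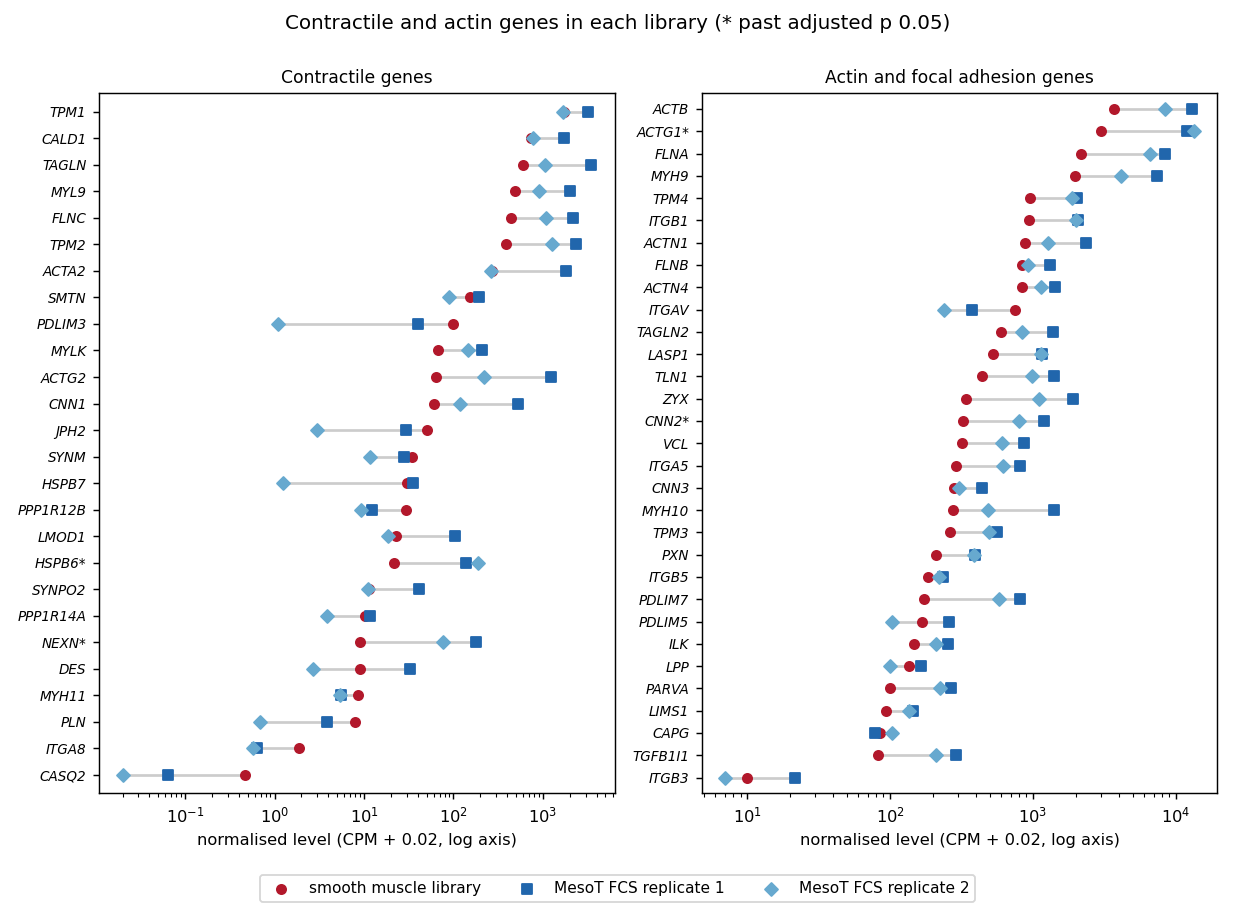
Normalised level (CPM plus an offset of 0.02, log axis) of the tested genes of the contractile list (left panel) and the actin and focal adhesion list (right panel) in the smooth muscle library and the 2 MesoT FCS libraries, with grey lines joining the lowest and highest value, 1 contractile gene not drawn. Over the whole lists smooth muscle lies below both MesoT FCS libraries for 10 of 27 contractile genes and 26 of 31 actin and focal adhesion genes.

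Of the 31 genes of the actin cytoskeleton and focal adhesion, 2 fell and none rose. The share called lower, 6.45%, did not exceed the 7.57% of all genes, although 29 had a log2 fold change below 0 (median -1.06). ACTG1, cytoplasmic gamma-actin, had 2965 CPM in the smooth muscle library, against 11989.6 and 13363 CPM in the MesoT FCS libraries (log2 fold change -2.1 ± 0.38 (SE), adjusted p = 0.0191). CNN2, a calponin of non-muscle cells, had 324 CPM in smooth muscle, against 1199.6 and 799.5 CPM in MesoT FCS (log2 fold change -1.63, adjusted p = 0.0383). Of the 6 genes with a CArG box in the windows above these 2 passed the test and the other 4 did not, and HSPB6 and NEXN, the called contractile genes, held no box in the window searched. ACTB, cytoplasmic beta-actin, had 3661 CPM in smooth muscle, against 13008 and 8420.3 CPM in MesoT FCS, FLNA, filamin A, had 2164 CPM in smooth muscle, against 8353 and 6618 CPM in MesoT FCS, and TPM4 lay at 948 CPM in smooth muscle, against 2027 and 1860.4 CPM in MesoT FCS. None of these 3 passed, although smooth muscle was below both MesoT FCS libraries for 26 of the 31 genes. No gene of the list rose by DESeq2 or voom or at an unadjusted p under 0.05, whereas 14 fell by DESeq2 and 8 by voom. The count of lower calls ranged from 0 without MesoT FCS replicate 1 to 18 with other libraries left out, and with library size scaling alone 27 of the 31 lay below 0. ACTG1, CNN2 and NEXN did not pass without 1 MLC library (adjusted p up to 0.109), and ACTG1, CNN2, HSPB6 and NEXN did not without 1 MesoT FCS replicate (adjusted p up to 0.105).

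Of 24 transcriptional regulators of smooth muscle tested, 5 rose and 3 fell (20.8% and 12.5%, against 10.3% and 7.57% of all genes). SRF itself had 46.3 CPM in the smooth muscle library, against 182 and 129.7 CPM in the MesoT FCS libraries (log2 fold change -1.75 ± 0.39 (SE), adjusted p = 0.0321). GATA6, a factor of splanchnic and vascular smooth muscle, had 17.4 CPM in smooth muscle, against 97.7 and 74.2 CPM in MesoT FCS (log2 fold change -2.31, adjusted p = 0.0206), and FHL2, a LIM protein that is an SRF target and cofactor, had 48.2 CPM in smooth muscle, against 229 and 178 CPM in MesoT FCS (log2 fold change -2.08, adjusted p = 0.0342). MYOCD, which encodes myocardin, did not pass, with 13.6 CPM in smooth muscle, against 44.5 and 24.3 CPM in MesoT FCS. The genes that rose were HEY1, HEY2 and HEYL, the NOTCH-induced repressors described with NOTCH below, the zinc finger gene KLF5 (52.5 CPM in smooth muscle, against 5.54 and 4.58 CPM in MesoT FCS; log2 fold change 3.37, adjusted p = 0.00278) and the stomach mesenchyme factor BARX1, which was low (2.28 CPM in smooth muscle, against 0.0893 and 0 CPM in MesoT FCS). KLF5 is known both from proliferating smooth muscle and from epithelial basal layers. Without MesoT FCS replicate 1 none of the 24 was called lower, and without the MLC libraries 4 rose and 0 fell. SRF, GATA6, FHL2 and BARX1 did not pass without 1 MLC library (adjusted p up to 0.091) or without 1 MesoT FCS replicate (adjusted p up to 0.0939).

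Receptors and channels of contraction split by gene. Among 33 tested, 5 rose and 3 fell (15.2% and 9.09%, against 10.3% and 7.57% of all genes). KCNMA1, the large-conductance calcium-activated potassium channel that relaxes smooth muscle, had 13.5 CPM in the smooth muscle library, against 252 and 309 CPM in the MesoT FCS libraries (log2 fold change -4.38 ± 0.32 (SE), adjusted p = 0.00297). PRKG1, the cyclic GMP-dependent kinase, had 9.24 CPM in smooth muscle, against 29.9 and 24.4 CPM in MesoT FCS (log2 fold change -1.55, adjusted p = 0.0225), whereas both subunits of the nitric oxide receptor that makes cyclic GMP rose. GUCY1A1 had 145 CPM in smooth muscle, against 3.08 and 0.503 CPM in MesoT FCS (log2 fold change 6.30, adjusted p = 0.00801). GUCY1B1 had 41.9 CPM in smooth muscle, against 7.72 and 3.57 CPM in MesoT FCS (log2 fold change 2.88, adjusted p = 0.0122). The endothelin receptor EDNRB (42.4 CPM in smooth muscle, against 0 and 0.223 CPM in MesoT FCS), the muscarinic receptor CHRM3 (20.2 CPM in smooth muscle, against 0.0893 and 0.558 CPM in MesoT FCS) and the ryanodine receptor RYR3 also rose. AGTR1, the angiotensin II receptor, fell to 0.407 CPM in smooth muscle, against 8.44 and 3.07 CPM in MesoT FCS. Without the MLC libraries 4 of the 33 rose and 1 fell, where 3.68% of all genes rose and 1.32% fell. Of 20 SRF and YAP target genes, 1 rose and 3 fell (5% and 15%, against the same shares of all genes tested). AMOTL1 rose (log2 fold change 1.38, adjusted p = 0.011), while the receptor kinase AXL (-1.72), the GTPase-activating protein DLC1 (-2.86) and AJUBA (-1.01) fell on the log2 scale. PRKG1, RYR3, AGTR1, AXL, DLC1 and AJUBA did not pass without 1 MLC library (adjusted p up to 0.11), and PRKG1, EDNRB, RYR3, AGTR1 and AJUBA did not without 1 MesoT FCS replicate (adjusted p up to 0.114).

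The gene lists with the largest shares of calls were epithelial. Of 34 genes of stratified and basal epidermis, 26 rose in the smooth muscle library (10.3% of all genes did) and none fell, with a median log2 fold change of 8.52, or 7.21 with genes at 0 counts set at their bound. KRT5, the basal keratin of stratified epithelia, had 870.3 CPM in the smooth muscle library, against 0 and 0 CPM in the MesoT FCS libraries, at least 11692-fold higher taking 3 counts over both MesoT FCS libraries as the floor. KRT14, its partner keratin, had 259 CPM in smooth muscle, against 0.0447 and 0 CPM in MesoT FCS, a ratio of 10447 (95% counting interval 1874 to 412704). TP63, the master transcription factor of the epidermal basal layer, had 82.3 CPM in smooth muscle, against 0.0447 and 0 CPM in MesoT FCS, a ratio of 3315 (95% counting interval 594 to 131002). All 3 were at or next to 0 in MesoT FCS, and KRT5 reached at most 0.308 CPM in the MesoT day 18 and MLC libraries, where TP63 reached at most 9.02 CPM.

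The set reached beyond keratins of the basal layer. Hemidesmosomes, which fix basal cells to their basement membrane, were represented by ITGB4 (442 CPM in smooth muscle, against 1.47 and 0.893 CPM in MesoT FCS; log2 fold change 8.52 ± 0.34 (SE), adjusted p = 0.000932) and COL17A1 (544 CPM in smooth muscle, against 0.134 and 0.168 CPM in MesoT FCS; log2 fold change 11.80, adjusted p = 0.00262). Desmosomal genes of squamous cells rose too, with DSG3 at 68.6 CPM in smooth muscle, against 0 and 0 CPM in MesoT FCS and the plakophilin PKP1 at 173 CPM in smooth muscle, against 0.134 and 0.168 CPM in MesoT FCS. Keratins of activated epidermis rose as well: KRT6A had 741 CPM in smooth muscle, against 0 and 0 CPM in MesoT FCS, KRT16 had 628 CPM in smooth muscle, against 0.0447 and 0.112 CPM in MesoT FCS and KRT17 had 319.5 CPM in smooth muscle, against 0.134 and 0.279 CPM in MesoT FCS. Genes of differentiating layers were called too: KRT1, the suprabasal keratin, had 14 CPM in smooth muscle, against 0 and 0 CPM in MesoT FCS (at least 188-fold higher), and IVL, a cornified envelope protein, had 9.85 CPM in smooth muscle, against 0 and 0 CPM in MesoT FCS (at least 132-fold higher). KRT6A, KRT6B and KRT6C are near-identical copies, and KRT14, KRT16 and KRT17 are related in sequence. Reads could have been split or lost within each of these sets, so their single values are uncertain. The list summed to 7200.2 CPM in smooth muscle, against 479 and 376 CPM in MesoT FCS. IVL and KRT6C did not pass without 1 MLC library (adjusted p up to 0.0854), and IVL did not without 1 MesoT FCS replicate (adjusted p up to 0.107).

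Genes of simple epithelium and of epithelial junctions rose in 30 of 35 cases (85.7%, against 10.3% of all genes), and none fell (median log2 fold change 4.91). CDH1, E-cadherin, had 322 CPM in the smooth muscle library, against 0.580 and 0.168 CPM in the MesoT FCS libraries (log2 fold change 9.68 ± 0.48 (SE), adjusted p = 0.00124). EPCAM, an adhesion molecule of epithelia, had 98.6 CPM in smooth muscle, against 1.88 and 3.85 CPM in MesoT FCS (log2 fold change 5.12, adjusted p = 0.0035). DSP, desmoplakin, had 2164 CPM in smooth muscle, against 224 and 150.2 CPM in MesoT FCS. The membrane proteases PRSS8 (7.85) and ST14, the tight junction scaffold TJP3, the trafficking protein RAB25 and the lipid enzyme CDS1 (6.60) were among the smallest p-values of the list, with log2 fold changes in parentheses where both MesoT FCS libraries held more than 3 counts together. The simple-epithelial keratins KRT8, KRT18, KRT19 and KRT7 did not pass: KRT18 had 1169 CPM in smooth muscle, against 1461 and 627 CPM in MesoT FCS, and KRT7 had 419.7 CPM in smooth muscle, against 199.6 and 12.7 CPM in MesoT FCS. These keratins were thus present in all 3 libraries, while CDH1 and several other junction genes were near 0 in MesoT FCS.

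Regulators of the switch between epithelium and mesenchyme rose in 10 of 22 cases and fell in 2 (45.5% and 9.09%, against 10.3% and 7.57% of all genes). The epithelial splicing factor ESRP1 had 113 CPM in the smooth muscle library, against 0 and 0.112 CPM in the MesoT FCS libraries and ESRP2 had 52.2 CPM in smooth muscle, against 0.491 and 0.223 CPM in MesoT FCS. The epithelial transcription factors GRHL1, GRHL3 and OVOL1 were at 48.3, 26 and 35.7 CPM in smooth muscle, and no MesoT FCS library exceeded 0.179 CPM for any of them. GRHL2 had 59.4 CPM in smooth muscle, against 0 and 0 CPM in MesoT FCS. TWIST2, a mesenchymal factor, fell to 0.488 CPM in smooth muscle, against 13.1 and 13.8 CPM in MesoT FCS (log2 fold change -4.78, adjusted p = 0.0299), and FOXC2 fell with 8.79 CPM in smooth muscle, against 59.7 and 32.2 CPM in MesoT FCS. Other mesenchymal genes were present in all 3 libraries. VIM, vimentin, had 2981 CPM in smooth muscle, against 3335 and 2499 CPM in MesoT FCS (adjusted p = 0.972), ZEB1 had 22.8 CPM in smooth muscle, against 55.4 and 58.6 CPM in MesoT FCS (adjusted p = 0.057), and SNAI2, which basal keratinocytes also use, rose (log2 fold change 1.17, adjusted p = 0.0109). TWIST2, FOXC2 and SNAI2 did not pass without 1 MLC library (adjusted p up to 0.078), and TWIST2 and FOXC2 did not without 1 MesoT FCS replicate (adjusted p up to 0.0772).

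Part of the epithelial set was also present in the MesoT day 18 and MLC cultures. CDH1 had 142 and 144 CPM in the MesoT day 18 libraries and 191 and 205 CPM in the MLC libraries. GRHL2 had 34.3 and 43.1 CPM in MesoT day 18 and 64.9 and 66.3 CPM in MLC, and EPCAM lay between 59.6 and 75.1 CPM in these 4 libraries. Of the genes called higher, all 4 of these libraries were above both MesoT FCS libraries for 29 of 30 junction genes, 9 of 10 regulators and 13 of 26 epidermal genes. Smooth muscle was above all 4 for 23 junction genes, 7 regulators and 25 epidermal genes. These counts carry no test.

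Leaving out any 1 of the other 6 libraries gave 22 to 28 higher calls in the epidermal list, 28 to 31 in the junction list, and 8 to 10 among the regulators, whose lower calls numbered 0 to 4. Without both MLC libraries the counts were 23 and 29, where 3.68% of all genes rose. In the epidermal list, 1 gene was lower at an unadjusted p under 0.05 and 1 by DESeq2, none by voom, and in the junction list there was none by any of these. With only the 3 libraries compared, which leave 1 residual degree of freedom, edgeR called no gene of the 3 lists (CDH1 and KRT5 at adjusted p = 0.0559, KRT14 and TP63 at 0.0544), while 28 epidermal and 31 junction genes and 10 regulators were higher at an unadjusted p under 0.05. Epithelial cells lying beside mesenchymal cells and cells that hold both sets of genes cannot be told apart in these counts, which are sums over all cells.

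**Figure D2:**
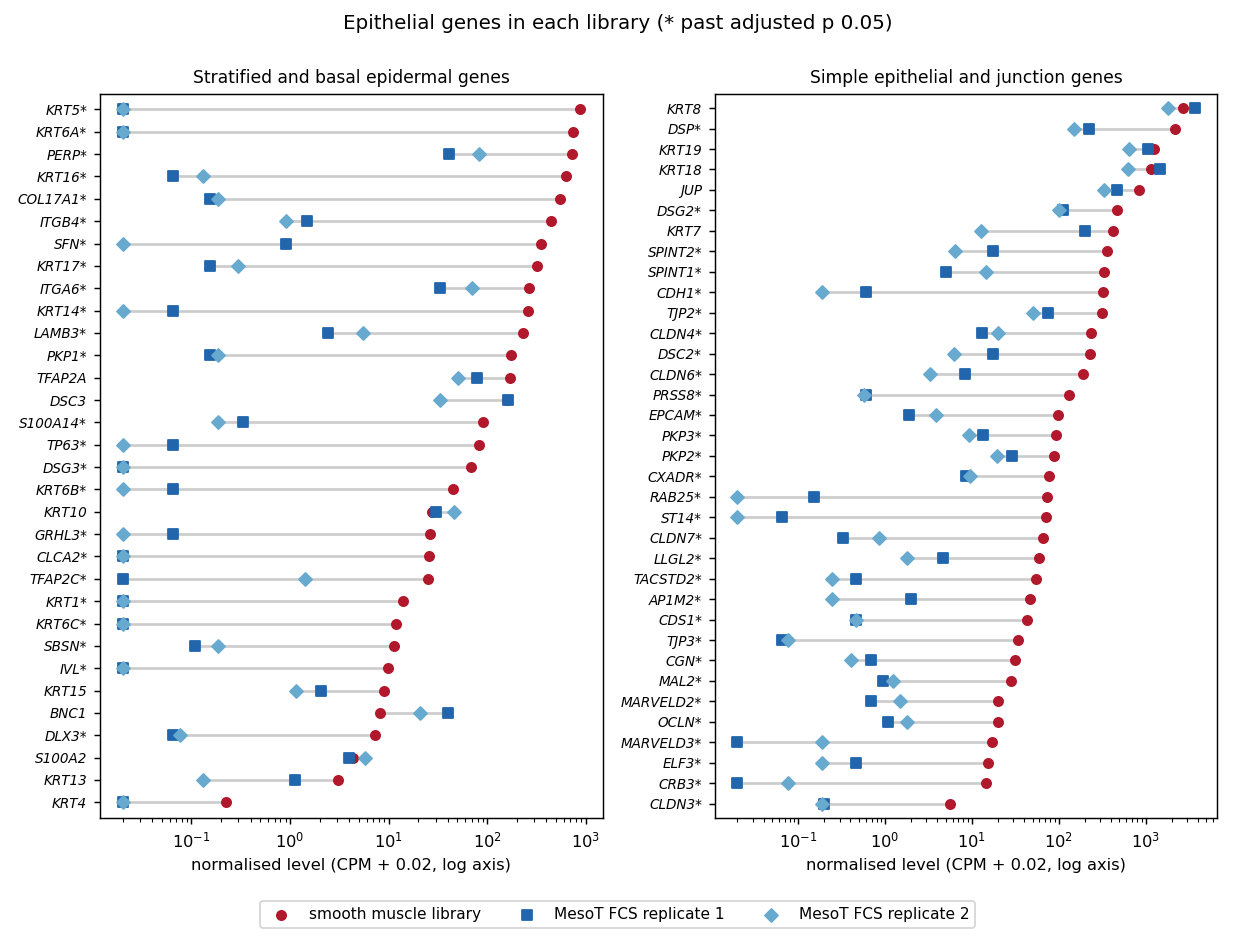
Normalised level (CPM plus an offset of 0.02, log axis) of the tested genes of the epidermal list (left panel, 2 genes not drawn) and the simple epithelial and junction list (right panel) in the smooth muscle library and the 2 MesoT FCS libraries. Over the whole lists smooth muscle lies above both MesoT FCS libraries for 30 of 34 epidermal and 33 of 35 junction genes.

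The basement membrane list overlaps the epidermal one, for example in LAMB3. Of 21 tested, 6 rose (28.6%, against 10.3% of all genes). None fell by edgeR, DESeq2 or voom, nor at an unadjusted p under 0.05. LAMB3, a chain of the epidermal laminin 332, had 232 CPM in the smooth muscle library, against 2.41 and 5.53 CPM in the MesoT FCS libraries (log2 fold change 5.88 ± 0.48 (SE), adjusted p = 0.00379). LAMA3, the alpha chain of the same laminin, had 40.7 CPM in smooth muscle, against 1.16 and 0.168 CPM in MesoT FCS and rose too. LAMC3 (5.99), LAMA1 (2.04) and LAMA5 (1.47) also rose on the log2 scale, whereas LAMB1 and COL4A1, of basement membranes in general, did not pass (adjusted p = 0.585 and 0.429). Without 1 MLC library the count was 4. LAMA1 and LAMA5 did not pass without 1 MLC library (adjusted p up to 0.0612) or without 1 MesoT FCS replicate (adjusted p up to 0.0683).

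In the interstitial matrix, 7 of 43 genes rose and 1 fell (16.3% and 2.33%, against 10.3% and 7.57% of all genes). COL3A1, the collagen of soft connective tissue and vessel walls, had 21154 CPM in the smooth muscle library, against 3999 and 5824 CPM in the MesoT FCS libraries (log2 fold change 2.11 ± 0.44 (SE), adjusted p = 0.0281). LUM, lumican, which spaces collagen fibrils, had 1177 CPM in smooth muscle, against 89.8 and 95.3 CPM in MesoT FCS (log2 fold change 3.67 ± 0.43 (SE), adjusted p = 0.0073). VCAN, versican, had 996 CPM in smooth muscle, against 331 and 349 CPM in MesoT FCS, and COL5A3, COL14A1, COL15A1 and ASPN rose with log2 fold changes of 2.53, 4.70, 6.88 and, for ASPN, a ratio of 136 (95% counting interval 23.8 to 5441). EFEMP1 fell (log2 fold change -3.10, adjusted p = 0.0419). COL1A1, FN1 and SPARC did not pass (adjusted p = 0.966, 0.44 and 0.659), so calls fell on single collagens and proteoglycans. POSTN, periostin, showed the spread within MesoT FCS, with 96 CPM in smooth muscle, against 427 and 3099.6 CPM in MesoT FCS. Among 27 proteases and their inhibitors, 5 rose and 2 fell (18.5% and 7.41%, against the same shares of all genes). TIMP3 had 1914 CPM in smooth muscle, against 232 and 90.9 CPM in MesoT FCS (log2 fold change 3.57, adjusted p = 0.0158). MMP9 had 49.4 CPM in smooth muscle, against 1.96 and 0.223 CPM in MesoT FCS. MMP1, interstitial collagenase, had 11.4 CPM in smooth muscle, against 111 and 304 CPM in MesoT FCS (log2 fold change -4.19, adjusted p = 0.0486). Without the MLC libraries 4 matrix genes and 2 protease genes rose, where 3.68% of all genes did. COL3A1, VCAN, COL15A1, EFEMP1, TIMP3, MMP9 and MMP1 did not pass without 1 MLC library (adjusted p up to 0.103), and COL3A1, VCAN, COL15A1, MMP9 and MMP1 did not without 1 MesoT FCS replicate (adjusted p up to 0.112).

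Among 23 surface markers of cultured stroma, 4 fell and 3 rose (17.4% and 13%, against 7.57% and 10.3% of all genes). CAV1, caveolin, had 45.5 CPM in the smooth muscle library, against 357 and 579 CPM in the MesoT FCS libraries (log2 fold change -3.36 ± 0.40 (SE), adjusted p = 0.00777). CD248, endosialin, had 66 CPM in smooth muscle, against 712 and 513 CPM in MesoT FCS, ENG, endoglin, had 31.5 CPM in smooth muscle, against 199 and 176 CPM in MesoT FCS, and FAP had 15 CPM in smooth muscle, against 67.6 and 106 CPM in MesoT FCS. NT5E, CD73 of stromal cells, had 49.2 CPM in smooth muscle, against 163 and 199 CPM in MesoT FCS and missed the threshold (adjusted p = 0.0589). PDPN, podoplanin, which both mesothelium and basal epidermis make, had 107 CPM in smooth muscle, against 4.78 and 1.01 CPM in MesoT FCS (log2 fold change 5.18, adjusted p = 0.011), and NGFR and S100A4 rose too. Counts of lower calls ranged from 1 without MesoT FCS replicate 1 to 11 with other libraries left out. CD248, ENG, NGFR and S100A4 did not pass without 1 MLC library (adjusted p up to 0.0701), and CD248, ENG, FAP, NGFR and S100A4 did not without 1 MesoT FCS replicate (adjusted p up to 0.1).

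Position along the body axis was read from the HOX genes, whose paralogue number runs from front to rear in the embryo. HOX genes 1 to 4 fell in 5 of 11 cases and HOX genes 5 to 8 in 6 of 11, with none higher in either list, and HOX genes 9 to 13 gave 1 higher and 1 lower of 15. Lower calls thus took 45.5% and 54.5% of the first 2 lists, against 7.57% of all genes. For HOX genes 9 to 13 the shares were 6.67% each way, below the 10.3% higher and 7.57% lower of all genes. HOXA3 had 0.0814 CPM in the smooth muscle library, against 53.4 and 103 CPM in the MesoT FCS libraries, a ratio of 0.00108 (95% counting interval 0.000131 to 0.00390). HOXA5 had 0.0814 CPM in smooth muscle, against 24.7 and 73.5 CPM in MesoT FCS, a ratio of 0.00175 (95% counting interval 0.000212 to 0.00634). HOXA4 was at 0 counts in smooth muscle, against 4.06 and 8.38 CPM in MesoT FCS, at least 49-fold lower. In this cluster every gene from HOXA2 to HOXA7 fell. The rear part of the same cluster was not called: HOXA9 had 19.8 CPM in smooth muscle, against 18.2 and 5.75 CPM in MesoT FCS, HOXA10 had 40.8 CPM in smooth muscle, against 35.3 and 7.82 CPM in MesoT FCS, and HOXA11 had 61.8 CPM in smooth muscle, against 34.2 and 4.30 CPM in MesoT FCS, none past the threshold. The plot of HOX levels by paralogue number shows the break between HOXA7 and HOXA9.

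In the HOXB cluster, HOXB3 (-2.08), HOXB5 (-2.61) and HOXB6 (-1.81) fell on the log2 scale, while HOXB9 had 47.6 CPM in smooth muscle, against 59 and 72.1 CPM in MesoT FCS. In the other clusters HOXC5 fell (at least 17.5-fold lower), HOXC9 fell (-5.46), and HOXC13, which skin appendages also use, rose to 9.77 CPM in smooth muscle, against no counts in MesoT FCS. The median log2 fold changes were -3.65 for genes 1 to 4 (-2.08 with genes at 0 at their bound), -2.61 for genes 5 to 8 and 1.53 for genes 9 to 13. No gene of the first 2 lists rose by DESeq2, by voom or at an unadjusted p under 0.05. The lower calls numbered 7 and 8 by DESeq2 and 3 and 4 by voom, under which HOXA4, HOXA5, HOXB3 and HOXC5 did not pass (adjusted p = 0.0612, 0.0701, 0.0649 and 0.131). Leaving out 1 library gave 4 to 7 and 3 to 7 lower calls, the fewest in both without MesoT FCS replicate 2. The strand setting of the counts is not given, so overlapping antisense transcripts of the HOXA cluster cannot be told apart from these genes. HOXB3, HOXB6, HOXC5, HOXC9 and HOXC13 did not pass without 1 MLC library (adjusted p up to 0.114) or without 1 MesoT FCS replicate (adjusted p up to 0.0887).

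**Figure D3:**
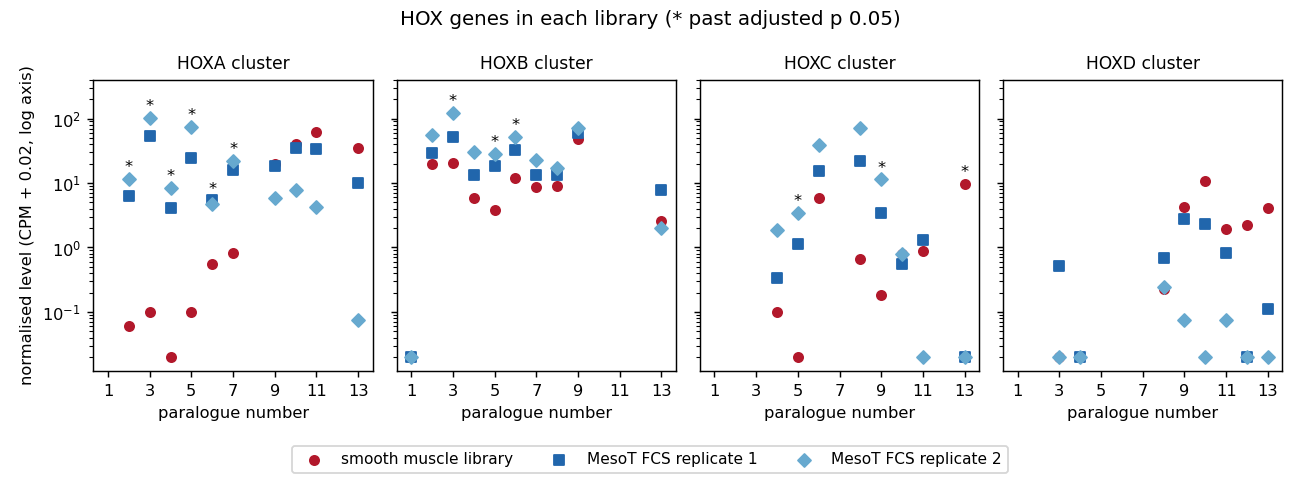
Normalised level (CPM plus an offset of 0.02, log axis) of the tested HOX genes against their paralogue number, by cluster and with 1 gene not drawn, in the smooth muscle library and the 2 MesoT FCS libraries. Smooth muscle lies below both MesoT FCS libraries for all 11 of the genes 5 to 8, and in the HOXA cluster the gap closes at HOXA9.

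Factors that pattern the splanchnic mesoderm moved both ways, 5 of 24 higher and 5 lower (20.8% each, against 10.3% and 7.57% of all genes). HAND1, a factor of lateral plate mesoderm and extraembryonic tissue, had 160.0 CPM in the smooth muscle library, against 0.0893 and 0.0558 CPM in the MesoT FCS libraries, a ratio of 2149.9 (95% counting interval 735 to 10429.6). ISL1, of second heart field and lateral plate, had 39.3 CPM in smooth muscle, against 1.88 and 3.57 CPM in MesoT FCS (log2 fold change 3.86, adjusted p = 0.0255), and HAND2 had 84.2 CPM in smooth muscle, against 32.3 and 37.9 CPM in MesoT FCS (log2 fold change 1.26, adjusted p = 0.0397). GATA5 and BARX1 rose at low levels. TBX5, a factor of the anterior lateral plate and heart, was at 0 in smooth muscle, against 4.73 and 5.53 CPM in MesoT FCS, at least 41.7-fold lower. MEIS2, a HOX cofactor, had 42.1 CPM in smooth muscle, against 212 and 242 CPM in MesoT FCS (log2 fold change -2.43 ± 0.25 (SE), adjusted p = 0.00566), and HLX and OSR1 fell with log2 fold changes of -4.12 and -2.21. Without the MLC libraries the counts were 1 higher and 3 lower, where 3.68% of all genes rose and 1.32% fell. ISL1, HAND2, GATA5, BARX1 and OSR1 did not pass without 1 MLC library (adjusted p up to 0.0933), and ISL1, HAND2 and BARX1 did not without 1 MesoT FCS replicate (adjusted p up to 0.128).

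Mesothelial genes were tested because both cultures come from the layer that makes mesothelium. Of 24, 4 rose and 2 fell (16.7% and 8.33%, against 10.3% and 7.57% of all genes). By voom neither of the lower calls passed (adjusted p = 0.0727 for WT1 and 0.107 for LRRN4). WT1, the factor that defines embryonic mesothelium, had 0.0407 CPM in smooth muscle, against 5.58 and 3.41 CPM in MesoT FCS, a ratio of 0.00882 (95% counting interval 0.000222 to 0.0497) that rests on 1 smooth muscle count. LRRN4 fell (2.28 CPM in smooth muscle, against 38 and 9.72 CPM in MesoT FCS; log2 fold change -3.39, adjusted p = 0.0461), though not without either MesoT day 18 library. UPK1B (8.71 CPM in smooth muscle, against 0.179 and 0.279 CPM in MesoT FCS), CALB2 (11.7 CPM in smooth muscle, against 1.96 and 2.68 CPM in MesoT FCS), PDPN and ALDH1A2 rose. MSLN, mesothelin, did not pass (1.79 CPM in smooth muscle, against 0.268 and 0.0558 CPM in MesoT FCS). Higher calls ranged from 1 without 1 MLC library to 10 with other libraries left out. LRRN4, UPK1B, CALB2 and ALDH1A2 did not pass without 1 MLC library (adjusted p up to 0.107), and UPK1B did not without 1 MesoT FCS replicate (adjusted p up to 0.0786).

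Genes of amnion and trophoblast, extraembryonic epithelia that BMP4 can induce from pluripotent cells, rose in 9 of 16 tested cases (56.25%, against 10.3% of all genes). None fell by edgeR, DESeq2 or voom or at an unadjusted p under 0.05. VTCN1 had 82.4 CPM in the smooth muscle library, against 0 and 0.0558 CPM in the MesoT FCS libraries, a ratio of 3320.0 (95% counting interval 595 to 131197). GABRP, a GABA receptor subunit of amnion and other epithelia, had 98.3 CPM in smooth muscle, against 0.0447 and 0 CPM in MesoT FCS, a ratio of 3961 (95% counting interval 710.3 to 156529). ITGB6 had 295 CPM in smooth muscle, against 0.134 and 0.223 CPM in MesoT FCS (log2 fold change 10.70, adjusted p = 0.000932), and GATA3 had 156 CPM in smooth muscle, against 1.83 and 9.05 CPM in MesoT FCS (log2 fold change 4.85, adjusted p = 0.0156). HAND1, ISL1, TFAP2C, VGLL1 and IGFBP3 completed the calls, and 5 genes were called at the fewest, without MLC replicate 1. Both VTCN1 and GABRP were also present in the MLC libraries, where VTCN1 had 225 and 249 CPM and GABRP 539 and 608 CPM. Smooth muscle was above all 4 MesoT day 18 and MLC libraries for 3 of the 9 genes called. GATA3 and TFAP2C are also made in epidermis, ITGB6 in other epithelia, and HAND1 and ISL1 stand in the mesoderm list as well. Of 12 pluripotency genes tested, 5 rose: POU5F1 had 5.58 CPM in smooth muscle, against 0.0447 and 0 CPM in MesoT FCS, ZFP42 had 43.2 CPM in smooth muscle, against 1.61 and 0.279 CPM in MesoT FCS, LIN28B had 29.9 CPM in smooth muscle, against 2.72 and 2.90 CPM in MesoT FCS, and TDGF1 and SALL4 were also called. NANOG was at 0 in all 3 libraries, and no gene of the list fell by any of the same tests. The 5 higher calls were 41.7% of the pluripotency genes tested, against 10.3% of all genes. Without MLC replicate 1, 3 pluripotency genes rose. GATA3, ISL1, TFAP2C, IGFBP3, TDGF1 and SALL4 did not pass without 1 MLC library (adjusted p up to 0.114), and ISL1, IGFBP3, POU5F1 and TDGF1 did not without 1 MesoT FCS replicate (adjusted p up to 0.13).

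NOTCH ligands, a receptor and targets were among the calls in the list of 30 PDGF, IGF and NOTCH genes. Of the 30, 13 rose and 1 fell (43.3% and 3.33%, against 10.3% and 7.57% of all genes). The ligand JAG1 had 393 CPM in the smooth muscle library, against 26.6 and 18.3 CPM in the MesoT FCS libraries (log2 fold change 4.13 ± 0.26 (SE), adjusted p = 0.00226). The receptor NOTCH3, which mural cells of vessels depend on, had 1079 CPM in smooth muscle, against 148 and 136 CPM in MesoT FCS (log2 fold change 2.92 ± 0.31 (SE), adjusted p = 0.00595). The target repressors had 59.5 CPM in smooth muscle, against 2.32 and 5.14 CPM in MesoT FCS for HEY1, 31.3 CPM in smooth muscle, against 0.134 and 0 CPM in MesoT FCS for HEY2 and 21.7 CPM in smooth muscle, against 0.134 and 0 CPM in MesoT FCS for HEYL. JAG2 (4.57) and DLL1 (6.07) rose on the log2 scale. JAG1 and NOTCH genes are used by basal epidermis as well as by smooth muscle, and their part in either cell type was not tested. JAG2 and DLL1 did not pass without 1 MLC library (adjusted p up to 0.0911), and DLL1 did not without 1 MesoT FCS replicate (adjusted p up to 0.0833).

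Growth factors of the same list rose with them. IGF2, the fetal insulin-like growth factor, had 12925 CPM in the smooth muscle library, against 467 and 28.6 CPM in the MesoT FCS libraries (log2 fold change 5.70 ± 1.36 (SE), adjusted p = 0.0391), a gap that was larger than the wide spread between the MesoT FCS replicates. IGF1 had 14.1 CPM in smooth muscle, against 0.0893 and 0 CPM in MesoT FCS, a ratio of 284 (95% counting interval 78 to 2353). IGFBP2 (2.24) and IGFBP3 (2.66) rose and IGFBP4 (-1.28) fell on the log2 scale. PDGFA (89.1 CPM in smooth muscle, against 17.8 and 11 CPM in MesoT FCS) and PDGFB (15.6 CPM in smooth muscle, against 1.56 and 0.949 CPM in MesoT FCS), ligands for mural and stromal receptors, rose, and PDGFRB did not pass (574 CPM in smooth muscle, against 265 and 358 CPM in MesoT FCS). Higher calls in the list numbered 9 without 1 MLC library. Of 14 imprinted genes, 3 rose and 2 fell (21.4% and 14.3%, against 10.3% and 7.57% of all genes). DLK1, a NOTCH-related membrane protein of fetal mesenchyme, had 3081 CPM in smooth muscle, against 0.893 and 9.88 CPM in MesoT FCS (log2 fold change 9.17 ± 1.71 (SE), adjusted p = 0.0206), CDKN1C had 107 CPM in smooth muscle, against 20.9 and 14.5 CPM in MesoT FCS, and H19, which lies beside IGF2, had 20.4 CPM in smooth muscle, against 0.0893 and 0 CPM in MesoT FCS and did not pass (adjusted p = 0.177). IGF2, IGFBP3, IGFBP4 and DLK1 did not pass without 1 MLC library (adjusted p up to 0.0971), and IGFBP3, IGFBP4 and DLK1 did not without 1 MesoT FCS replicate (adjusted p up to 0.13).

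In the WNT list, 15 of 37 rose and 2 fell (40.5% and 5.41%, against 10.3% and 7.57% of all genes). The nuclear effector LEF1 had 38.6 CPM in the smooth muscle library, against 0.134 and 0.503 CPM in the MesoT FCS libraries (log2 fold change 6.98 ± 0.46 (SE), adjusted p = 0.00262). The feedback genes AXIN2 (9.20 CPM in smooth muscle, against 2.1 and 2.62 CPM in MesoT FCS), RNF43 (21.7 CPM in smooth muscle, against 1.70 and 1.12 CPM in MesoT FCS) and NKD1 (12.1 CPM in smooth muscle, against 0.0893 and 0.223 CPM in MesoT FCS) rose. Of ligands, WNT6 had 60.4 CPM in smooth muscle, against 0.313 and 0.0558 CPM in MesoT FCS. The receptors FZD7 (36.8 CPM in smooth muscle, against 189 and 209 CPM in MesoT FCS; log2 fold change -2.43, adjusted p = 0.00426) and FZD2 (-2.28) fell. Without the MLC libraries 8 rose and 2 fell. For 14 of the 15 genes called higher, every MesoT day 18 and MLC library was above both MesoT FCS libraries. Smooth muscle was above all MesoT day 18 and MLC libraries for only 2 of the 15. These counts carry no test.

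In the BMP list, 11 of 25 genes rose (44%, against 10.3% of all genes) and none fell. The immediate targets ID1 and ID3 had 267 CPM in the smooth muscle library, against 37.6 and 46 CPM in the MesoT FCS libraries, and 319 CPM in smooth muscle, against 116 and 93.5 CPM in MesoT FCS. SMAD9 (2.08), MSX2 (4.59), DLX5 (4.12) and the pseudoreceptor BAMBI (2.96) rose on the log2 scale. The ligand BMP7 had 51.9 CPM in smooth muscle, against 0 and 0 CPM in MesoT FCS, at least 698-fold higher, and BMP2 had 63.7 CPM in smooth muscle, against 3.80 and 7.04 CPM in MesoT FCS. CHRD, a BMP antagonist, rose with them (41.8 CPM in smooth muscle, against 0.625 and 0.447 CPM in MesoT FCS). By DESeq2 2 genes fell, by voom none, and 3 did at an unadjusted p under 0.05. Without 1 MLC library 7 rose. For 10 of the 11 genes called higher, every MesoT day 18 and MLC library was above both MesoT FCS libraries. Smooth muscle was above all MesoT day 18 and MLC libraries for 4 of the 11. These counts carry no test. ID3, BAMBI and BMP2 did not pass without 1 MLC library (adjusted p up to 0.0952) or without 1 MesoT FCS replicate (adjusted p up to 0.109).

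Other signalling lists gave fewer calls. Higher calls took 16.7% of the TGF-beta, 12% of the FGF and 23.8% of the retinoic acid genes, against 10.3% of all genes. Lower calls took 4.17%, 8% and 9.52% of them, against 7.57%. TGF-beta genes rose in 4 of 24 cases and fell in 1. TGFB3 had 92.6 CPM in the smooth muscle library, against 6.16 and 4.47 CPM in the MesoT FCS libraries (log2 fold change 4.12, adjusted p = 0.00201) and COL7A1, the anchoring fibril collagen of skin, had 467 CPM in smooth muscle, against 46.4 and 34.5 CPM in MesoT FCS, whereas the effector SMAD3 had 119.7 CPM in smooth muscle, against 293 and 349 CPM in MesoT FCS (log2 fold change -1.42, adjusted p = 0.0338). FGF genes rose in 3 of 25 cases and fell in 2. FGF2, the factor added to the MesoT FCS medium as protein, had 8.51 CPM in smooth muscle, against 108 and 98.2 CPM in MesoT FCS as transcript (log2 fold change -3.60 ± 0.36 (SE), adjusted p = 0.00516). The receptors FGFR2 (75.9 CPM in smooth muscle, against 1.47 and 0.0558 CPM in MesoT FCS) and FGFR3 (61.9 CPM in smooth muscle, against 4.91 and 1.79 CPM in MesoT FCS) rose. Retinoic acid genes rose in 5 of 21 cases and fell in 2. CYP26A1, the enzyme that breaks retinoic acid down, had 6.02 CPM in smooth muscle, against 0.0447 and 0 CPM in MesoT FCS, and ALDH1A2, which makes it, had 10.0 CPM in smooth muscle, against 0.536 and 0.0558 CPM in MesoT FCS. Without the MLC libraries none of the retinoic acid genes passed in edgeR. For all 5 retinoic acid genes called higher, every MesoT day 18 and MLC library was above both MesoT FCS libraries. Smooth muscle was above all MesoT day 18 and MLC libraries for 1 of the 5. SMAD3, CYP26A1 and ALDH1A2 did not pass without 1 MLC library (adjusted p up to 0.0901), and SMAD3 and CYP26A1 did not without 1 MesoT FCS replicate (adjusted p up to 0.112).

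Of 24 cell cycle genes, 11 fell and 1 rose (45.8% and 4.17%, against 7.57% and 10.3% of all genes). Smooth muscle was below both MesoT FCS libraries for 23 of them (median log2 fold change -1.40). MKI67, the proliferation antigen, had 63.9 CPM in the smooth muscle library, against 216 and 251 CPM in the MesoT FCS libraries (log2 fold change -1.87 ± 0.41 (SE), adjusted p = 0.0304). TYMS, for DNA precursor synthesis, had 19.4 CPM in smooth muscle, against 70.9 and 86.7 CPM in MesoT FCS (log2 fold change -2.02, adjusted p = 0.00692), and PCNA, the replication clamp, had 26 CPM in smooth muscle, against 83.2 and 93.4 CPM in MesoT FCS (log2 fold change -1.77, adjusted p = 0.00995). CCNB1, of mitotic entry, had 44.5 CPM in smooth muscle, against 171 and 162 CPM in MesoT FCS. CCNE1 alone rose (24.6 CPM in smooth muscle, against 11.5 and 7.48 CPM in MesoT FCS). The replicates of MesoT FCS lay close to each other here, unlike for contractile genes. The lower calls numbered 2 without either MLC replicate, which were PCNA and TYMS, and 5 under library size scaling alone. MKI67, CCNB1 and CCNE1 did not pass without 1 MLC library (adjusted p up to 0.0964), and MKI67 and CCNE1 did not without 1 MesoT FCS replicate (adjusted p up to 0.0877).

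**Figure D4:**
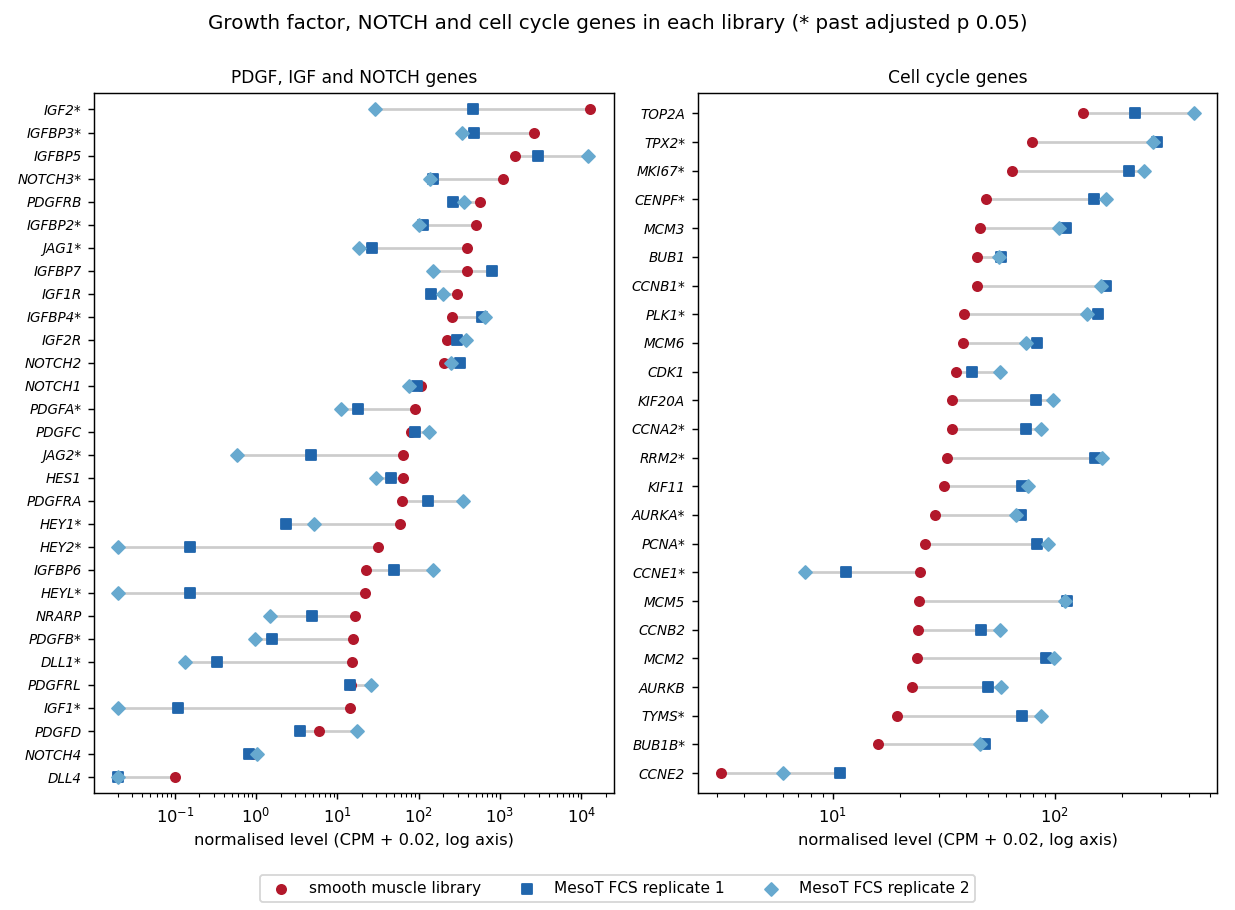
Normalised level (CPM plus an offset of 0.02, log axis) of each tested gene of the PDGF, IGF and NOTCH list (left panel) and the cell cycle list (right panel) in the smooth muscle library and the 2 MesoT FCS libraries. Smooth muscle lies above both MesoT FCS libraries for 19 of 30 genes on the left and below both for 23 of 24 on the right.

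Markers of other cell types the smooth muscle library could hold were counted. Of those tested, 33.3% of pericyte, 25% of cardiac, 33.3% of cartilage and 18.8% of endothelial genes rose, against 10.3% of all genes. Lower calls were 1 cartilage gene and 1 endothelial gene, ENG, given above (6.67% and 6.25%, against 7.57% of all genes). No pericyte or cardiac gene was called lower. Of the 16 endothelial genes, 9 had a log2 fold change above 0 and 7 below 0. Pericyte genes rose in 4 of 12 tested cases, NOTCH3 and HEYL among them. RGS5, a pericyte marker, did not pass (25.6 CPM in the smooth muscle library, against 154 and 37 CPM in the MesoT FCS libraries). In the cardiac list 4 of 16 rose: ACTC1, the cardiac actin that fetal smooth muscle also makes, had 718 CPM in smooth muscle, against 4.64 and 10.7 CPM in MesoT FCS (log2 fold change 6.55 ± 0.61 (SE), adjusted p = 0.00454), and MYL3, HCN4 and SLN were called at 1.51 to 2.40 CPM in smooth muscle. Cartilage genes rose in 5 of 15 cases, and COL2A1, the cartilage collagen, had 33.3 CPM in smooth muscle, against 0.268 and 0.335 CPM in MesoT FCS (log2 fold change 6.78, adjusted p = 0.00273). SOX9 did not pass (98 CPM in smooth muscle, against 22.9 and 49 CPM in MesoT FCS). Endothelial genes rose in 3 of 16 cases, with ERG at 11.1 CPM in smooth muscle, against 0.670 and 0.838 CPM in MesoT FCS, and CDH5 was near 0 throughout (0.529 CPM in smooth muscle, against 0.134 and 0.0558 CPM in MesoT FCS). With 1 library left out the higher calls were as few as 2 pericyte, 1 cardiac, 3 cartilage and 1 endothelial. MYL3, HCN4 and SLN did not pass without 1 MLC library (adjusted p up to 0.131), and MYL3 and SLN did not without 1 MesoT FCS replicate (adjusted p up to 0.0998).

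The remaining lists were near the background or near 0. Higher calls took 12.5% of skeletal muscle, 10% of neural and 10.5% of hepatocyte and gut genes, against 10.3% of all genes. Of 8 skeletal muscle genes 1 rose, TNNT3 (at least 45.9-fold higher), and MYOD1 and MYOG had no counts in any of the 3 libraries. Of 10 neural genes 1 rose, MAP2 (63.7 CPM in smooth muscle, against 2.86 and 8.32 CPM in MesoT FCS). Of 19 hepatocyte and gut genes 2 rose, SERPINA1 and CDH17, and ALB was at 0.0814 CPM in smooth muscle, against 0 and 0 CPM in MesoT FCS. None of the 5 blood genes tested passed in either direction by edgeR, DESeq2 or voom, and none did so at an unadjusted p under 0.05. The part of these cell types in the other results was not tested. TNNT3, MAP2 and CDH17 did not pass without 1 MLC library (adjusted p up to 0.102), and TNNT3, SERPINA1 and CDH17 did not without 1 MesoT FCS replicate (adjusted p up to 0.106).

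**Figure D5:**
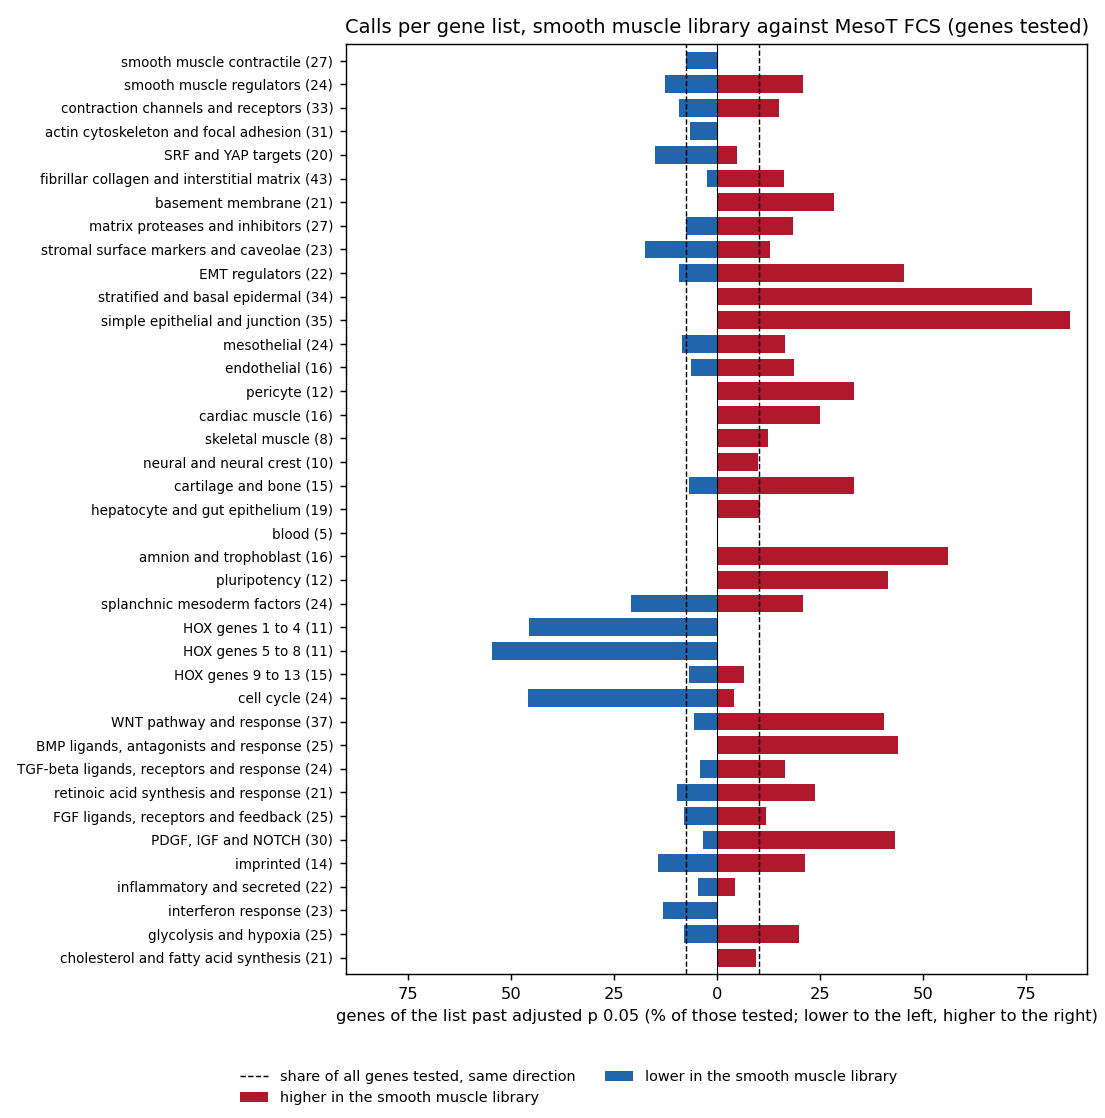
Share of the tested genes of each list that passed an adjusted p of 0.05, higher in smooth muscle to the right and lower to the left, with dashed lines at the shares over all genes (10.3% higher, 7.57% lower) and the number tested in parentheses. The epidermal and junction lists reach 26 of 34 and 30 of 35 on the right, and the HOX 1 to 8 and cell cycle lists extend farthest to the left.

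The called genes of at least 10 CPM were also ranked by fitted fold, and the 10 at each end were read. Beside KRT5, KRT6A, DSG3 and GRHL2, the highest were COMP, a matrix protein of cartilage and tendon (186 CPM in the smooth muscle library, against 0 and 0 CPM in the MesoT FCS libraries), TRIM29, of basal epithelia (159 CPM in smooth muscle, against 0 and 0 CPM in MesoT FCS), and MIR205HG, a host transcript of an epithelial microRNA (159 CPM in smooth muscle, against 0 and 0 CPM in MesoT FCS). RGL3 (86 CPM in smooth muscle, against 0 and 0 CPM in MesoT FCS), the squamous serpin SERPINB13 (77.5 CPM in smooth muscle, against 0 and 0 CPM in MesoT FCS) and the secreted phospholipase PLA2G2A (64.5 CPM in smooth muscle, against 0 and 0 CPM in MesoT FCS) followed. All 10 had no count in either MesoT FCS library, so their folds are lower bounds, and their rank is that of a fitted value. KRT14, GABRP, VTCN1 and TP63, with 1 MesoT FCS count each, ranked below them although their ratios given above exceed some of these bounds, such as at least 798-fold for GRHL2. RGL3 was at 9.47 to 20.8 CPM in the MesoT day 18 and MLC libraries. TRIM29 and SERPINB13 did not pass without 1 MLC library (adjusted p up to 0.0556).

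Of the lowest, FGF5 had 0 CPM in the smooth muscle library, against 46.1 and 15.7 CPM in the MesoT FCS libraries (at least 267-fold lower), SRGN, serglycin, had 0 CPM in smooth muscle, against 45.3 and 4.91 CPM in MesoT FCS, and SULT1E1, the estrogen sulfotransferase, had 0 CPM in smooth muscle, against 20.9 and 12.2 CPM in MesoT FCS (at least 139.6-fold lower). CLDN11, a tight junction claudin, had 1.83 CPM in smooth muscle, against 926 and 1185 CPM in MesoT FCS (log2 fold change -9.17 ± 1.04 (SE), adjusted p = 0.00701). The sodium channel gene SCN9A had 0.244 CPM in smooth muscle, against 57.8 and 179.6 CPM in MesoT FCS (log2 fold change -8.91, adjusted p = 0.0233). MIR137HG (0.0407 CPM in smooth muscle, against 16.3 and 11.8 CPM in MesoT FCS), DOCK10 (0.203 CPM in smooth muscle, against 21.4 and 62 CPM in MesoT FCS) and TNFRSF11B, osteoprotegerin (0.407 CPM in smooth muscle, against 25.3 and 132 CPM in MesoT FCS), completed the set with HOXA3 and HOXA5. In the MesoT day 18 and MLC libraries, FGF5, SRGN, SCN9A, MIR137HG, DOCK10 and TNFRSF11B reached at most 2.97 CPM. CLDN11 lay at 8.56 to 78.6 CPM there, SULT1E1 at 4.19 to 36.8 CPM, HOXA3 at 62.8 to 124 CPM and HOXA5 at 38.4 to 77.7 CPM. FGF5, SRGN, MIR137HG, DOCK10 and TNFRSF11B did not pass without 1 MLC library (adjusted p up to 0.0813), and SCN9A, MIR137HG and DOCK10 did not without 1 MesoT FCS replicate (adjusted p up to 0.067).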

How the data were processed

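Poly-A RNA-seq counts of 7 libraries were used, 1 of smooth muscle and 2 each of MesoT FCS, MesoT day 18 and MLC. The authors deposited raw counts per gene, and the submitters' processing notes name TopHat2 2.0.13, Bowtie2 2.2.9, Subread 1.4.2 with featureCounts, and hg19. The annotation release and strand setting are, in the sources used here, not given. Of 63677 gene IDs, 52181 matched a symbol.

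Counts were analysed with edgeR 4.0.16 in R 4.3.3 (TMM, filterByExpr, glmQLFit and glmQLFTest on group, 3 residual degrees of freedom). The contrast was smooth muscle minus MesoT FCS, with Benjamini-Hochberg adjustment over all genes. DESeq2 1.42.0, limma voom 3.58.1, other scalings and filters, and fits without a library or group were alternatives. Scripts were tested on simulated data. Folds against 0 counts used a floor of 3 counts over the group, and ratios against 1 to 3 counts have exact binomial 95% intervals, which cover counting error only.

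The members, the 39 gene lists (853 of 856 genes matched) and the tests were chosen with earlier results of these data known, and lists carry no test of their own. The text names a fixed set of markers, the 10 highest and 10 lowest called genes of at least 10 CPM, and list members with the smallest p-values or that show how a list varies. A few genes of these lists enter the counts but are not reported here by name.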

Additional observations from a re-analysis of the deposited data

How the results depend on the processing

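The number of genes called depended on which libraries estimated the spread. DESeq2 called 6412 genes, 3329 higher and 3083 lower, against 4123 (2379 higher and 1744 lower) by edgeR. Without the MLC group 1118 passed, 823 higher and 295 lower. Without the MesoT day 18 group 6591 passed, 3634 higher and 2957 lower. Using only the 3 libraries compared, which leaves 1 residual degree of freedom, edgeR called 0 genes, 0 higher and 0 lower, while 6997 had an unadjusted p under 0.05. Leaving out 1 library at a time gave 1027 to 6524 genes, 757 to 3598 higher and 270 to 3005 lower: 1041 without MLC replicate 1, 1027 without MLC replicate 2, 2150 without MesoT FCS replicate 1 and 1850 without MesoT FCS replicate 2. Scaling by library size alone called 2540 higher and 1215 lower, and the median log2 fold change of all genes became 0.14. The other scalings, filters, voom and the removal of mitochondrial genes gave 4117 to 4601 genes. No paired analysis was possible because the smooth muscle group holds 1 library. By voom 21 named genes lost their call. Of the named genes, the fits without an MLC library changed the most calls, apart from the 3-library fit, and no named gene changed sign while called. The cause of these shifts was not tested. With 1 smooth muscle library, the spread within that group cannot be measured.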

Other observations

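Genes of glucose supply and oxygen sensing, not described above, split within 1 list. Of 25, 5 rose and 2 fell in the smooth muscle library (20% and 8%, against 10.3% and 7.57% of all genes). SLC2A3, a glucose transporter of high affinity, had 1649.6 CPM in the smooth muscle library, against 77.2 and 55.5 CPM in the MesoT FCS libraries (log2 fold change 4.63 ± 0.56 (SE), adjusted p = 0.00784). SLC2A1, the transporter of most growing cells, had 1957 CPM in smooth muscle, against 441 and 339 CPM in MesoT FCS (log2 fold change 2.33, adjusted p = 0.0277), and EGLN3, a hypoxia-induced oxygen sensor, had 251 CPM in smooth muscle, against 1.96 and 3.35 CPM in MesoT FCS (log2 fold change 6.57, adjusted p = 0.00385). NDRG1, which hypoxia raises, had 546 CPM in smooth muscle, against 24.8 and 49.5 CPM in MesoT FCS. The 2 lower calls were of glycolytic enzymes. ENO1, enolase, had 908 CPM in smooth muscle, against 2792 and 2771 CPM in MesoT FCS (log2 fold change -1.61, adjusted p = 0.0196), and PKM, pyruvate kinase, had 1097 CPM in smooth muscle, against 3253 and 3219 CPM in MesoT FCS (log2 fold change -1.56, adjusted p = 0.041). Without MesoT FCS replicate 1 the counts were 2 higher and 0 lower. SLC2A1, NDRG1, ENO1 and PKM did not pass without 1 MLC library (adjusted p up to 0.115) or without 1 MesoT FCS replicate (adjusted p up to 0.109).

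Interferon response genes fell in 3 of 23 tested cases (13%, against 7.57% of all genes), with 1 lower call by voom and 0 without the MLC libraries. The 3 were IFIT3 (1.38 CPM in smooth muscle, against 5.58 and 15.2 CPM in MesoT FCS), ISG15 (13.8 CPM in smooth muscle, against 62.2 and 87.1 CPM in MesoT FCS) and B2M (173 CPM in smooth muscle, against 349.5 and 454 CPM in MesoT FCS). In the inflammatory and secreted list 1 of 22 genes rose and 1 fell (4.55% each, against 10.3% and 7.57% of all genes). PTX3, a pentraxin of activated stroma, had 3.95 CPM in smooth muscle, against 555 and 193 CPM in MesoT FCS (log2 fold change -6.57 ± 0.85 (SE), adjusted p = 0.00927), and PTGES, the prostaglandin E synthase, had 42.5 CPM in smooth muscle, against 2.23 and 3.18 CPM in MesoT FCS (log2 fold change 3.98, adjusted p = 0.00722). Of 21 cholesterol and fatty acid genes, 2 rose (9.52%, close to the 10.3% of all genes). SC5D (217 CPM in smooth muscle, against 47.5 and 29.2 CPM in MesoT FCS) was among them. No gene of the cholesterol list fell by edgeR, DESeq2 or voom, or at an unadjusted p under 0.05. No interferon gene rose by edgeR or voom, 2 did by DESeq2 and 2 at an unadjusted p under 0.05. IFIT3, ISG15, B2M and SC5D did not pass without 1 MLC library (adjusted p up to 0.121), and ISG15, B2M and SC5D did not without 1 MesoT FCS replicate (adjusted p up to 0.119).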
